A study of Mus musculus with 6 samples.

Results

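Thrombospondins and other matricellular proteins were followed in mouse mammary tumors through 10 genes: the thrombospondins Thbs1, Thbs2, Thbs3, Thbs4 and Comp, the tenascins Tnc and Tnxb, and Postn, Sparc and Spp1. They are 10 of 54232 genes in the count files, and all 10 were among the 16752 genes that passed the filter on low counts. They were listed by name and family, and the list was selected on the counts of these same tumors, with the difference between genotypes and the extreme values of Comp and Spp1 in single libraries already known. The genotype values of the 10 genes are therefore a description and lend support to nothing. The study holds 3 libraries labelled CdGAP fx/fx (fx1, fx2 and fx3) and 3 labelled CdGAP wt/wt (wt1, wt2 and wt3), and both genotypes carry NIC, so the Cre transgene is present in the wt/wt tumors too. NIC couples an activated ErbB2 (Neu) receptor to Cre recombinase on one transcript, driven by the mouse mammary tumor virus promoter in mammary epithelium. In the fx/fx mice both copies of Arhgap31, which encodes the Cdc42 and Rac1 inactivator CdGAP, carry sites for Cre, while stromal cells without Cre keep the gene intact. Strain, age and whether each library came from its own animal are not given in the sources used here. Errors and p-values therefore describe only how far these libraries vary, and how far animals vary cannot be told from them.

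Matricellular proteins are secreted into the matrix but do not build its fibers; they bind collagens, growth factors, proteases and cell surface receptors and so alter how cells attach and signal. Thrombospondins are multimers of calcium-binding subunits, tenascins are large branched or extended glycoproteins, and osteopontin, encoded by Spp1, is a small phosphorylated ligand of integrins and CD44. In mammary tumors they are known mainly as products of activated fibroblasts, blood vessels and macrophages, and some also come from the tumor cells.

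Libraries held between 36732137 and 53606276 counts in fx/fx tumors and between 42373196 and 46460750 in wt/wt tumors. Levels are given as CPM, counts per 1000000 counts of a library after TMM scaling, and comparisons between genes as CPM per kb of exon. Arhgap31, the targeted gene, measured 156, 44.1 and 116 CPM in fx1, fx2 and fx3, against 664, 433 and 549.8 CPM in wt1, wt2 and wt3 (log2 fold change -2.38, SE 0.45, edgeR adjusted p = 0.153). By exact 2-sided permutation over 20 arrangements of the libraries, p was 0.1, and no smaller value can be reached with 3 libraries a genotype. The epithelial markers Epcam, Cdh1, Krt8, Krt18 and Krt19 summed to between 3340.0 and 4630.9 CPM in fx/fx and between 3241.1 and 3878.9 CPM in wt/wt.

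The 10 genes lie on 8 chromosomes (GRCm38). Spp1 (ENSMUSG00000029304, chromosome 5, 104435118 to 104441050, plus strand) and Comp (ENSMUSG00000031849, chromosome 8, 70373558 to 70382066, plus strand) are compact genes, whereas Tnc (ENSMUSG00000028364) spans chromosome 4 from 63959785 to 64047015 on the minus strand. The other thrombospondin genes are Thbs1 (ENSMUSG00000040152, chromosome 2, 118111876 to 118127133, plus strand), Thbs2 (ENSMUSG00000023885, chromosome 17, 14665500 to 14694235, minus strand), Thbs3 (ENSMUSG00000028047, chromosome 3, 89215180 to 89226837, plus strand) and Thbs4 (ENSMUSG00000021702, chromosome 13, 92751590 to 92794818, minus strand). Tnxb (ENSMUSG00000033327) lies on chromosome 17 from 34670535 to 34719815 on the plus strand, Postn (ENSMUSG00000027750) on chromosome 3 from 54361109 to 54391037 on the plus strand, and Sparc (ENSMUSG00000018593) on chromosome 11 from 55394500 to 55423183 on the minus strand. RefSeq promoter entries (GRCm38.p6) were at hand for 8 of the 10 genes, all but Thbs1 and Comp. The 250 bases before the transcription start nearest to the gene start are shown for Spp1, the gene with the most extreme library, for Tnc and Postn, which were higher in every fx/fx library, and for Thbs3, the 1 gene whose genotypes overlapped. Capitals mark matches, on either strand, to the letters TATAAA, which spell a TATA box, CCAAT, which spell the box of that name, GGGCGG, the letters of a GC box, TGANTCA, those of an AP-1 site, GGAATG, those of a TEAD site, or TGTGGT, those of a RUNX site. No 2 matches in the windows shown overlap. In order, the windows are chr5:104434861-104435110 (plus strand), chr4:64047016-64047265 (minus strand), chr3:54360857-54361106 (plus strand) and chr3:89214930-89215179 (plus strand).
Spp1: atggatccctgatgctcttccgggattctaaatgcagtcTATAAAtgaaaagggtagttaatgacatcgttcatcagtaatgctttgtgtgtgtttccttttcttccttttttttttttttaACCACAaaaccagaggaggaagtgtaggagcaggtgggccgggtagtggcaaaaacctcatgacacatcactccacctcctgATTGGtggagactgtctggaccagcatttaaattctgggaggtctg
Tnc: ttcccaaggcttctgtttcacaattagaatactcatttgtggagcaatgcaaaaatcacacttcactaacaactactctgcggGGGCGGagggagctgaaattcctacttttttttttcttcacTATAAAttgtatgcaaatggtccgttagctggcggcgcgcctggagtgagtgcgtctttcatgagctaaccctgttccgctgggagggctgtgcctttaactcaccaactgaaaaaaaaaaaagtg
Postn: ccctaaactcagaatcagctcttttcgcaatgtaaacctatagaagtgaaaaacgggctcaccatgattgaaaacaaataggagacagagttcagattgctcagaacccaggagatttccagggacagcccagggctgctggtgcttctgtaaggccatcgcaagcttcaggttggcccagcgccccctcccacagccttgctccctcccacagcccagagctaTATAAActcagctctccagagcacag
Thbs3: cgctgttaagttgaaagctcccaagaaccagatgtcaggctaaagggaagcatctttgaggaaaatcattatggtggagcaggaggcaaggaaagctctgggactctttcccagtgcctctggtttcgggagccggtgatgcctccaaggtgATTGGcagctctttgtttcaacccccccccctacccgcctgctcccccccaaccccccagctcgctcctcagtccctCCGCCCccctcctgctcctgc

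Spp1 held a TATAAA match from -211 to -206, TGTGGT on the minus strand from -128 to -123 and CCAAT on the minus strand from -46 to -42, with the base before the transcription start counted as -1. Tnc held GGGCGG from -167 to -162 and TATAAA from -126 to -121, and Postn held TATAAA from -26 to -21, about where TATA boxes usually lie. Thbs3 held no TATAAA; it had CCAAT from -98 to -94 and GGGCGG from -21 to -16, both on the opposite strand. Among all 32851 mouse promoter windows of this length, 12.4% held TATAAA, 33.8% CCAAT, 32.7% GGGCGG, 6.75% TGANTCA, 12.6% GGAATG and 14% TGTGGT. None of the 6 patterns was shared by all 4 windows shown. Of the other windows, Thbs2 held a reversed TATAAA and CCAAT in both orientations. Thbs4 held GGGCGG and reversed GGAATG matches, and Tnxb held TGAGTCA. Sparc held none of the letters searched, but the transcription start used for it lay 3103 bases inside the gene as counted.

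**Figure D1:**
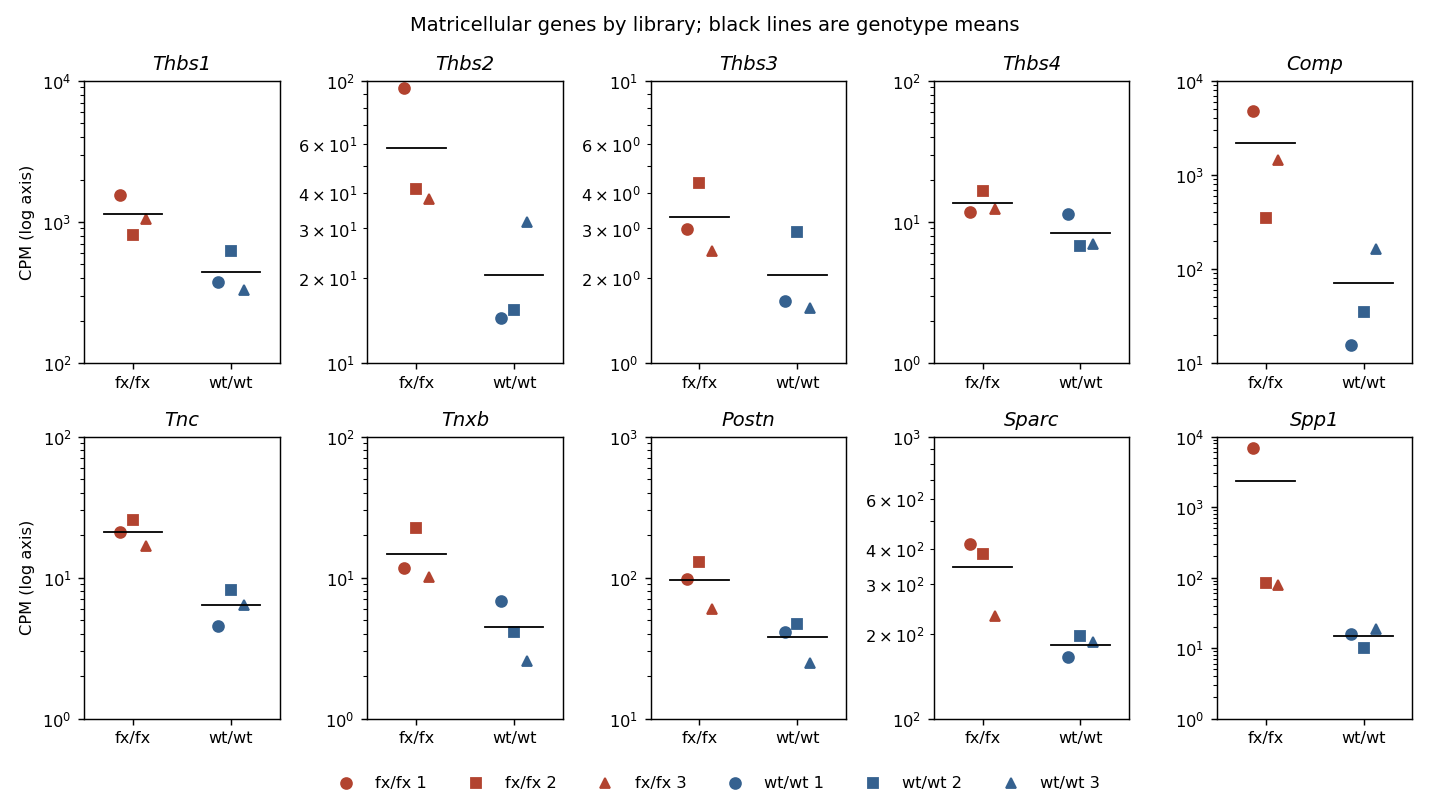
CPM of each of the 10 genes in each library, on a log axis that differs between panels, with fx/fx libraries in red left of wt/wt libraries in blue and a black line at each genotype mean. Spp1 in fx1 stands at 6920.2 CPM, far above the 83.7 and 79.5 CPM of fx2 and fx3, and Thbs3 is the panel in which the genotypes overlap.

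Among the genes of trimeric thrombospondins, which carry the repeats that bind CD36 and that activate latent TGF-beta in the case of Thbs1, Thbs1 and Thbs2 each had their 3 highest values in the 3 fx/fx libraries. Thbs1, an inhibitor of blood vessel growth, measured 1562.4, 815 and 1048.9 CPM in fx1, fx2 and fx3, against 375, 624 and 331 CPM in wt1, wt2 and wt3. The lowest fx/fx library was 1.31 times the highest wt/wt library, so the genotypes were separated by a small gap. Means were 1142.0 ± 382 CPM in fx/fx and 443 ± 158 CPM in wt/wt (SD, n = 3 each), a ratio of 2.58 (log2 fold change 1.36, SE 0.35). Thbs2, its closest relative and a product of fibroblasts, measured 94.6, 41.4 and 38.1 CPM in fx1, fx2 and fx3, against 14.4, 15.4 and 31.7 CPM in wt1, wt2 and wt3. Its fx/fx mean rested on fx1: the ratio of means was 2.83 with all libraries and 1.94 without fx1. The library wt3, highest of wt/wt for Thbs2, was lowest of all for Thbs1. Genes of chromosome 2, where Thbs1 lies, had a median log2 level relative to wt/wt of 0.06, 0.43 and 0.08 in fx1, fx2 and fx3. Thbs1 itself was lowest of the fx/fx libraries in fx2, and a link of its level to the chromosome was not tested.

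The genes of pentameric thrombospondins, Thbs3, Thbs4 and Comp, spanned the smallest and one of the widest differences among the 10. Thbs3 measured 2.99, 4.37 and 2.4985 CPM in fx1, fx2 and fx3, against 1.66, 2.90 and 1.57 CPM in wt1, wt2 and wt3. The library fx3 lay below wt2, so the genotypes overlapped. Thbs3 rested on only 72 to 163 counts per library, and 318 bases of its exons overlap exons of Mtx1 on the opposite strand, which had between 1164 and 1637 counts. Thbs4, known from muscle, tendon and blood vessels, measured 11.8, 16.5 and 12.4 CPM in fx1, fx2 and fx3, against 11.4, 6.75 and 6.97 CPM in wt1, wt2 and wt3. The lowest fx/fx library was 1.04 times wt1, so the genotypes all but touched. Its highest library, fx2, was also the 1 with the most RNA of skeletal muscle markers: Acta1, Myh4, Ckm, Mylpf and Tnnt3 summed to 1.45, 35.8 and 1.24 CPM in fx1, fx2 and fx3, against 3.15, 11.5 and 3.95 CPM in wt1, wt2 and wt3. Within wt/wt, however, wt2 had the most of this RNA and the lowest Thbs4. The part of muscle in the Thbs4 level was not tested.

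Comp, cartilage oligomeric matrix protein, which binds collagen fibrils and is best known from cartilage and tendon, had the widest range of the thrombospondins. It measured 4819.6, 353 and 1441.8 CPM in fx1, fx2 and fx3, against 15.4, 35.0 and 164 CPM in wt1, wt2 and wt3. Every fx/fx library was above every wt/wt library, with fx2 at 2.15 times wt3, yet the libraries of one genotype differed among themselves by 13.7-fold in fx/fx and 10.6-fold in wt/wt. Means were 2204.8 ± 2329.1 CPM in fx/fx and 71.5 ± 80.7 CPM in wt/wt (SD, n = 3 each), a ratio of 30.8 that was 12.5 without fx1. The log2 fold change was 4.95 (SE 1.29), or 3.64 without fx1 and 6.44 without wt3. In fx1 Comp alone took 0.478% of all counts and ranked 6 among protein-coding genes, in fx3 it ranked 52, and in wt1 it ranked 8611.

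Beside Comp, 4 of 6 chondrocyte markers (Acan, Matn3, Col2a1 and Hapln1) were near 0, and the other two, Col9a1 and Sox9, were abundant in both genotypes with overlapping values. Of 10 cartilage partners of Comp, 6 were tested, 5 had a log2 fold change above 0 and the median log2 fold change was 0.72. At an unadjusted edgeR p below 0.05, 3 of the 6 were higher (8.18% of all tested genes), the same 3 named here by their p, and DESeq2 called 3 higher (2.9% of all genes with an adjusted p). Aggrecan (Acan), the main cartilage proteoglycan, had at most 0.113 CPM in fx/fx, in fx1, and was at 0 in wt/wt. Matn3 had at most 0.097 CPM, in fx3. Col2a1, the main cartilage collagen, had 1.52 CPM in fx1 and at most 0.199 CPM in the others. Hapln1, which links aggrecan to hyaluronan, had at most 0.245 CPM, in fx1. Acan, Col2a1 and Hapln1 were thus highest in fx1, as Comp was, and a link to the Comp level was not tested. Sox9, a transcription factor of chondrocytes that epithelial cells also express, measured 116, 253 and 281 CPM in fx1, fx2 and fx3, against 181, 197 and 103 CPM in wt1, wt2 and wt3. Col9a1, a chain of collagen IX, which coats cartilage fibrils, had between 1508.2 and 3764.0 CPM in fx/fx and between 2115.2 and 2221.0 CPM in wt/wt. Col9a3, another chain, measured 278, 163 and 289 CPM in fx1, fx2 and fx3, against 69.4, 93.9 and 52.5 CPM in wt1, wt2 and wt3 (log2 fold change 1.76, edgeR adjusted p = 0.153). Col9a2 (0.73) and Col10a1 (2.60) were the next by p, with edgeR adjusted p = 0.195 and 0.291. The tendon markers Scx, Tnmd, Mkx and Fmod summed to between 9.80 and 36.3 CPM in fx/fx and between 18.5 and 27.3 CPM in wt/wt, overlapping between the genotypes.

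**Figure D2:**
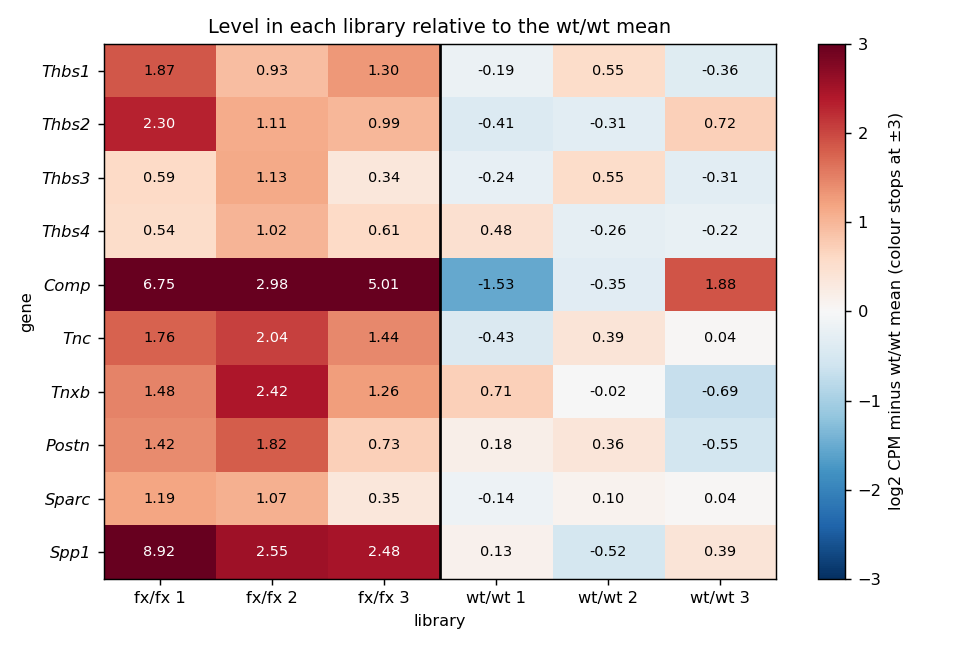
Log2 CPM of each gene in each library minus the mean of the 3 wt/wt libraries, with fx/fx libraries left of wt/wt libraries and each value printed in its cell; colours stop at ±3. Comp and Spp1 reach 6.75 and 8.92 in fx1, while Tnc lies between 1.44 and 2.04 in the 3 fx/fx libraries.

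Both tenascins had higher values in all fx/fx libraries, with less spread for Tnc than for Tnxb. Tnc, a large glycoprotein that appears around activated fibroblasts in healing wounds and tumors, measured 21.0, 25.7 and 16.8 CPM in fx1, fx2 and fx3, against 4.56, 8.13 and 6.38 CPM in wt1, wt2 and wt3. The lowest fx/fx library was 2.07 times the highest wt/wt library. Means were 21.2 ± 4.43 CPM in fx/fx and 6.36 ± 1.78 CPM in wt/wt (SD, n = 3 each), a ratio of 3.33 (log2 fold change 1.74, SE 0.30), and the log2 fold change lay between 1.54 and 1.95 when any 1 library was left out. Genes of chromosome 4 had a median log2 level relative to wt/wt of -0.70, -0.12 and -0.82 in fx1, fx2 and fx3. Tnc stood at 1.76, 2.04 and 1.44, and a link of its level to the chromosome was not tested. Tnxb, a tenascin of loose connective tissue that organizes collagen fibrils, measured 11.7, 22.5 and 10.04 CPM in fx1, fx2 and fx3, against 6.82, 4.11 and 2.55 CPM in wt1, wt2 and wt3. Its genotypes were separated, with fx3 at 1.47 times wt1, and fx2 was 1.92 times the next library.

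Postn and Sparc, which bind collagen and influence how its fibrils assemble, had smaller fold changes than the tenascins. Postn, periostin, a product of activated fibroblasts whose promoter window above holds TATAAA near the start, measured 97.5, 129 and 60.3 CPM in fx1, fx2 and fx3, against 41.4, 46.8 and 24.9 CPM in wt1, wt2 and wt3 (log2 fold change 1.34, SE 0.34). The groups were separated, with fx3 at 1.29 times wt2. Sparc, osteonectin, made by fibroblasts and endothelial cells, measured 416, 384 and 232 CPM in fx1, fx2 and fx3, against 165, 196 and 187 CPM in wt1, wt2 and wt3 (log2 fold change 0.91, SE 0.25). Its wt/wt libraries were the tightest of any of the 10 genes, with an SD of 8.63% of the mean, and fx3 stood at 1.18 times wt2. Genes of chromosome 11, where Sparc lies, had a median log2 level relative to wt/wt of -0.38, -0.04 and -0.14 in fx1, fx2 and fx3. Sparc stood at 1.19, 1.07 and 0.35, and a link of its level to the chromosome was not tested. In both genes fx3 was the lowest fx/fx library, as it was for Tnc, Tnxb, Thbs2, Thbs3 and Spp1.

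Spp1, osteopontin, was a single-library extreme. It measured 6920.2, 83.7 and 79.5 CPM in fx1, fx2 and fx3, against 15.6, 9.92 and 18.6 CPM in wt1, wt2 and wt3. All 3 fx/fx libraries were above all 3 wt/wt libraries, with fx3 at 4.27 times wt3, but fx1 was 82.7 times fx2. No other tested gene had so large a ratio of its highest to its next library (0.00597% of tested genes, Spp1 itself); for Comp that ratio was 3.34, and 1.4% of tested genes had one as large. With 367631 counts, Spp1 made up 0.686% of fx1 and was the protein-coding gene of rank 3 there, against ranks 2822 in fx2, 3141 in fx3 and between 8191 and 9624 in wt/wt. The log2 fold change was 7.32 (SE 2.02) with all libraries and 2.46 without fx1; as a ratio of means it was 160 and 5.54. With limma-voom it was 4.58. The edgeR adjusted p was 0.217 with all libraries and 0.291 without fx1, and that of limma-voom with all libraries was 0.328. DESeq2 gave no p with all libraries, and adjusted p of 1.32e-08, 0.000118 and 0.000173 without fx1, fx2 and fx3. Reads do not show which cells of that tumor made the transcript.

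The genes next to Spp1 had nothing near the size of its fx1 peak, and markers of macrophages, which are known to make osteopontin, overlapped between the genotypes. The bone matrix genes Dspp, Dmp1, Ibsp and Mepe, relatives of Spp1 in the same cluster on chromosome 5, were at or near 0: Ibsp had 1 count in fx1 and 0 in the others, Dspp and Mepe had 0 in every library, and Dmp1 had at most 0.734 CPM. Sparcl1, a relative of Sparc 321385 bases before Spp1, measured 1629.7, 170 and 1374.3 CPM in fx1, fx2 and fx3, against 179, 284 and 131 CPM in wt1, wt2 and wt3, so fx2 lay within wt/wt. Pkd2, 18400 bases after Spp1, measured 58.0, 42.2 and 34.5 CPM in fx1, fx2 and fx3, against 27.3, 29.0 and 32.8 CPM in wt1, wt2 and wt3. Both neighbors were highest in fx1, by 1.19 times the next library for Sparcl1 and 1.38 times for Pkd2. Macrophage markers, 8 genes, summed to 379, 442 and 209 CPM in fx1, fx2 and fx3, against 376, 340 and 232 CPM in wt1, wt2 and wt3, so fx1 was about level with wt1. Osteoblast markers, 6 genes with Bglap and Ibsp near 0, summed to between 2.94 and 5.33 CPM in fx/fx and between 2.45 and 4.49 CPM in wt/wt. A predicted gene, Gm42793, shares 309 exon bases with Spp1 on the same strand, and had 74 counts in fx1 and at most 4 in the other libraries.

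**Figure D3:**
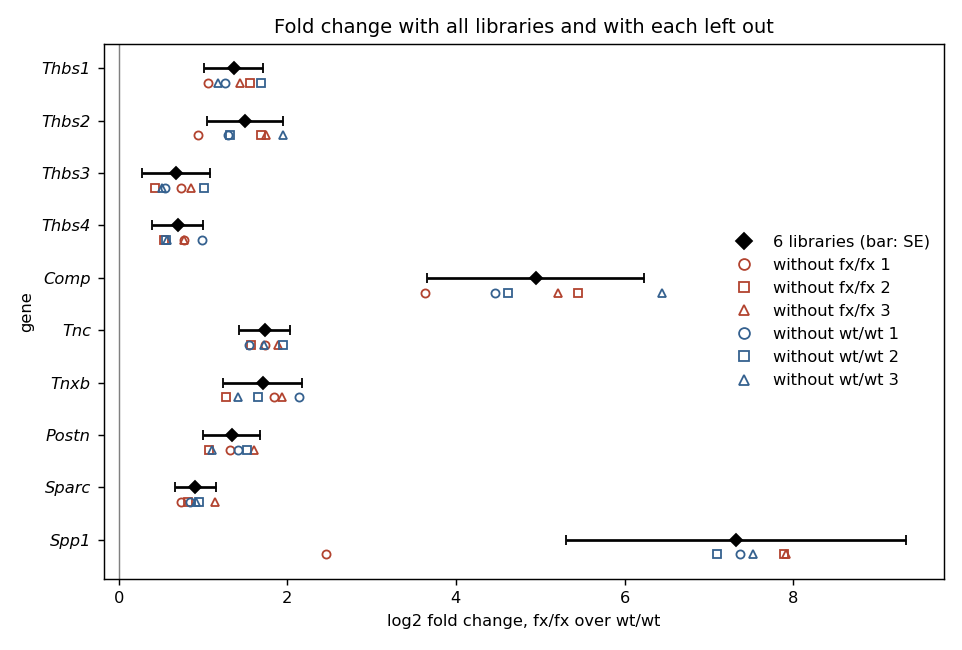
Log2 fold change of fx/fx over wt/wt for each gene with all 6 libraries (black diamonds, bars are SEs) and with 1 library left out (open symbols, fx/fx red and wt/wt blue). All values lie above 0; Spp1 moves from 7.32 to 2.46 without fx1, and Tnc stays between 1.54 and 1.95.

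All 10 genes had a log2 fold change above 0, where 49.6% of tested genes did, with a median of 1.43 against -0.0043 over all genes tested. Genotypes were separated upward for 9 of the 10, where 9.74% of tested genes were (9.93% were separated downward, none of the 10). At an adjusted p under 0.05 edgeR called 0 of the 10, as it called 0 of 16752 genes (0%), and limma-voom also called 0 (0%); edgeR adjusted p ran from 0.153 for Tnc to 0.499 for Thbs3. At an unadjusted edgeR p under 0.05, 8 of the 10 lay above wt/wt, where 8.18% of tested genes did, and 0 lay below, where 6.04% did. DESeq2 called Thbs1, Thbs2, Comp, Tnc, Tnxb and Postn higher, 6 of 10, where it called 2.9% of genes with an adjusted p higher and 1.73% lower; it gave Spp1 no p. Of these DESeq2 calls, that of Tnc held with each library left out. Comp lost its call without fx1, Thbs1 without fx1, wt1 or wt3, and Thbs2 without fx1, wt1 or wt2. Tnxb lost its call without fx2, wt2 or wt3, and Postn without fx1, fx2, wt1 or wt3. Since the genes were chosen with this contrast known, nothing is read from these counts.

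Ordered by level per exon length, the 10 genes changed places mostly at the top, among Spp1, Comp, Thbs1 and Sparc. In fx/fx tumors mean levels were 1432.7 CPM per kb for Spp1, 743 for Comp, 188 for Thbs1, 90.7 for Sparc, 10.99 for Postn, 8.29 for Thbs2, 4.13 for Thbs4, 2.72 for Tnc, 1.21 for Tnxb and 0.681 for Thbs3. In wt/wt tumors they were 73.0 CPM per kb for Thbs1, 48.2 for Sparc, 24.1 for Comp, 8.94 for Spp1, 4.34 for Postn, 2.93 for Thbs2, 2.54 for Thbs4, 0.818 for Tnc, 0.424 for Thbs3 and 0.368 for Tnxb. Spp1 led in fx1 at 4199.2 CPM per kb, Thbs1 led in fx2 at 134, and Comp led in fx3 at 486; in wt/wt, Thbs1 led in wt1 and wt2 and Comp in wt3. Neighbors in the order overlapped over libraries for Spp1 and Comp, Comp and Thbs1, Postn and Thbs2, and Tnxb and Thbs3 in fx/fx. In wt/wt they overlapped for Sparc and Comp, Comp and Spp1, Postn and Thbs2, Thbs2 and Thbs4, Tnc and Thbs3, and Thbs3 and Tnxb.

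**Figure D4:**
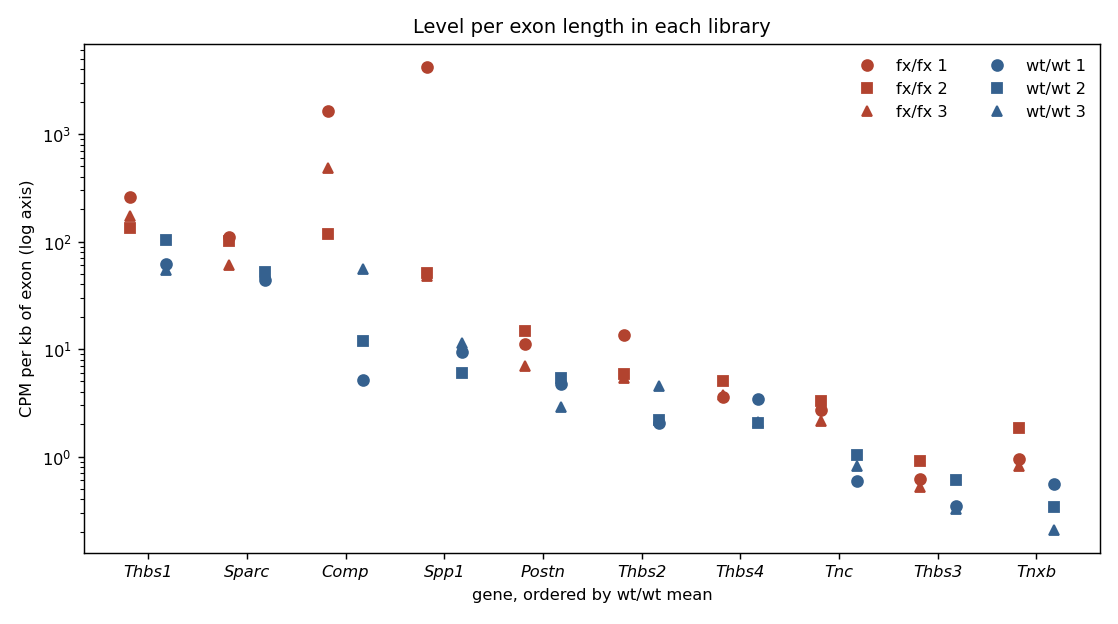
CPM per kb of exon in each library, on a log axis, with genes ordered by their wt/wt mean and fx/fx libraries in red left of wt/wt libraries in blue. Libraries spread far apart for Comp in both genotypes and for Spp1 in fx/fx, where the level runs from 48.3 to 4199.2 CPM per kb.

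Together the 10 genes made up 1.38%, 0.191% and 0.282% of counts in fx1, fx2 and fx3, against 0.0645%, 0.1003% and 0.0764% in wt1, wt2 and wt3. In fx1 Spp1 held 49.6% and Comp 34.5% of the summed CPM of the 10, whereas Thbs1 held 57.6%, 65.8% and 42.7% of it in wt1, wt2 and wt3. Without Comp and Spp1 the sums were 2217.7, 1438.1 and 1420.6 CPM in fx1, fx2 and fx3, against 620.4, 904.0 and 593 CPM in wt1, wt2 and wt3. The fx/fx libraries were still all above the wt/wt libraries, by less. Thbs1 was the largest part of each of these sums, with 1562.4, 815 and 1048.9 CPM in fx1, fx2 and fx3, against 375, 624 and 331 CPM in wt1, wt2 and wt3.

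Fibroblast markers were higher alongside the 10 genes. Pdgfra, Dcn, Lum, Col1a1, Fap, Dpt and Pi16 summed to 334, 551 and 289 CPM in fx1, fx2 and fx3, against 145, 216 and 109 CPM in wt1, wt2 and wt3, with 6 of 7 higher in all fx/fx libraries than in any of wt/wt, where 9.74% of all tested genes were. The exception, Pdgfra, measured 13.2, 15.2 and 11.7 CPM in fx1, fx2 and fx3, against 15.9, 17.4 and 11.4 CPM in wt1, wt2 and wt3. Pericyte and smooth muscle markers summed to between 141 and 240 CPM in fx/fx and between 90.0 and 118 CPM in wt/wt. All 6 had a log2 fold change above 0, where 49.6% of tested genes did. Of the 6, 3 were separated upward, where 9.74% of all tested genes were. Both shares apply to the marker counts that follow as well. Adipocyte markers summed to between 50.8 and 160 CPM in fx/fx and between 15.5 and 39.0 CPM in wt/wt. Of these, 5 of 5 were above 0 and 3 were separated upward. Endothelial markers overlapped, between 94.5 and 186 CPM in fx/fx and between 81.1 and 103 CPM in wt/wt, with 5 of 5 above 0 and 1 separated upward. Epithelial markers also had 5 of 5 above 0 and 1 separated upward. Of 8 macrophage markers, 6 were above 0 and 0 were separated upward. Platelets are a known source of thrombospondin 1. Platelet and megakaryocyte markers summed to between 5.51 and 10.03 CPM in fx/fx and between 4.15 and 5.76 CPM in wt/wt. Of the 3 tested, 2 were above 0 and 2 were separated upward, and Gp1bb was at 0 in every library. None of the defining fibroblast, pericyte, adipocyte or endothelial markers was at 0, but the adipocyte marker Lep had only 1 count in wt2. That is under the 3 counts that a count of 0 allows. The part of these cells in the levels of the 10 genes was not tested, and in bulk tissue a change in the number of such cells cannot be told apart from a change in RNA per cell.

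Other matricellular genes, from a list drawn up for this comparison, gave values in both directions. Of 26 listed, 19 were tested, 15 had a log2 fold change above 0 and 4 below, and the median was 0.90. By edgeR's unadjusted p, 6 of 19 were higher and 1 lower at 0.05, where 8.18% and 6.04% of all tested genes were. DESeq2 called 6 higher and 1 lower, where it called 2.9% and 1.73% of all genes. Fstl1, a secreted relative of Sparc, had the smallest p: it measured 98.9, 89.6 and 65.8 CPM in fx1, fx2 and fx3, against 28.3, 37.7 and 33.7 CPM in wt1, wt2 and wt3 (log2 fold change 1.35, SE 0.21, edgeR adjusted p = 0.153). Ccn1, an integrin ligand that cells make in response to stretch and serum, measured 56.4, 59.0 and 58.7 CPM in fx1, fx2 and fx3, against 21.2, 30.8 and 33.8 CPM in wt1, wt2 and wt3 (log2 fold change 1.02, edgeR adjusted p = 0.171). Spon1, a secreted protein with thrombospondin repeats, had a log2 fold change of 1.29 (edgeR adjusted p = 0.212). The gene that was lower was Smoc2, a calcium-binding relative of Sparc; it measured 15.2, 24.7 and 16.1 CPM in fx1, fx2 and fx3, against 245, 18.9 and 71.9 CPM in wt1, wt2 and wt3. The groups overlapped, since wt2 lay below fx2.

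Among receptors for these proteins, all 23 listed were tested, 18 had a log2 fold change above 0 and the median was 0.41, or 0.22 without fx1. By unadjusted edgeR p, 6 were higher and 1, the integrin chain Itgb6, lower at 0.05, where 8.18% and 6.04% of all tested genes were. DESeq2 called 2 of 23 higher, Itgav and Cacna2d1, where it called 2.9% of all genes. Itgav, the integrin chain that osteopontin, periostin and tenascin C bind, measured 385, 204 and 299 CPM in fx1, fx2 and fx3, against 113, 93.3 and 125 CPM in wt1, wt2 and wt3 (log2 fold change 1.43, SE 0.26, edgeR adjusted p = 0.153). Cacna2d1, a calcium channel subunit that binds thrombospondins, had a log2 fold change of 1.55, and Itga8, which pairs with Itgb1 to bind osteopontin and tenascin C, 1.27 (edgeR adjusted p = 0.241 and 0.246). The receptors Cd36, Cd44 and Cd47 are named for their role, after their values were seen. Cd36, the scavenger receptor bound by the trimeric thrombospondins, measured 19.9, 69.4 and 26.97 CPM in fx1, fx2 and fx3, against 14.0, 8.94 and 18.6 CPM in wt1, wt2 and wt3 (log2 fold change 1.48, edgeR adjusted p = 0.262), so the genotypes were separated and fx2 stood highest, as it did for adipocyte markers; adipocytes also express Cd36, and their part was not tested. Cd44 and Cd47, receptors for osteopontin and thrombospondin 1, overlapped between the genotypes, with log2 fold changes of 0.34 and 0.17 (edgeR adjusted p = 0.730 and 0.695).

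Enzymes that cleave or modify matricellular proteins had a median of 0.91 over 14 tested of 17 listed, 12 of them above 0; 7 were higher by unadjusted edgeR p at 0.05 (8.18% of all tested genes), and DESeq2 called 4 higher (2.9% of all genes). Adamts12 and Adamts7, which encode proteases known to cut COMP, were among the 3 with the smallest p. Adamts12 measured 49.8, 25.3 and 37.3 CPM in fx1, fx2 and fx3, against 12.9, 12.6 and 12.6 CPM in wt1, wt2 and wt3 (log2 fold change 1.56, SE 0.27, edgeR adjusted p = 0.153). Adamts7 measured 35.0, 51.6 and 41.4 CPM in fx1, fx2 and fx3, against 16.8, 13.2 and 21.3 CPM in wt1, wt2 and wt3 (log2 fold change 1.32, SE 0.25, edgeR adjusted p = 0.153). Both were separated between the genotypes. Among fx/fx libraries Adamts12 was highest in fx1 and lowest in fx2, as Comp was, whereas Adamts7 was highest in fx2. Bmp1, the procollagen C-proteinase, had a log2 fold change of 1.82 (edgeR adjusted p = 0.171).

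Among collagens and other matrix partners, 9 of 10 were higher in every fx/fx library than in any wt/wt library, all but Col12a1, where 9.74% of all tested genes were. All 10 listed had a log2 fold change above 0, with a median of 1.36; 9 were higher by unadjusted edgeR p at 0.05 (8.18% of all tested genes), and DESeq2 called 9 higher (2.9% of all genes). Smallest in p were the fibrillar collagen gene Col3a1, fibronectin and decorin, a collagen-binding proteoglycan that is also among the fibroblast markers. Their log2 fold changes were 1.59 for Col3a1, 1.65 for Fn1 and 2.00 for Dcn, with edgeR adjusted p = 0.153, 0.153 and 0.171. Of 8 genes for TGF-beta ligands and their latency proteins, 6 were above 0, with a median of 0.40. Without fx2, 4 were above 0 and the median was 0.13; the median was 0.68 without wt2. By unadjusted edgeR p, 3 were higher and 1 lower at 0.05, where 8.18% and 6.04% of all tested genes were, and DESeq2 called 0 higher and 1 lower, where it called 2.9% and 1.73%. Tgfb1, the cytokine that thrombospondin 1 can release from latency, measured 168, 59.8 and 88.6 CPM in fx1, fx2 and fx3, against 42.3, 31.97 and 55.5 CPM in wt1, wt2 and wt3 (edgeR adjusted p = 0.235). Ltbp4 and Ltbp2, which anchor or relate to latent TGF-beta in the matrix, had log2 fold changes of 0.86 and -2.04 (edgeR adjusted p = 0.220 and 0.266); the 1 DESeq2 call was Ltbp2. In none of these lists did edgeR call a gene at an adjusted p under 0.05 (0% of all genes), and whether a list differs from other genes was not tested.

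**Figure D5:**
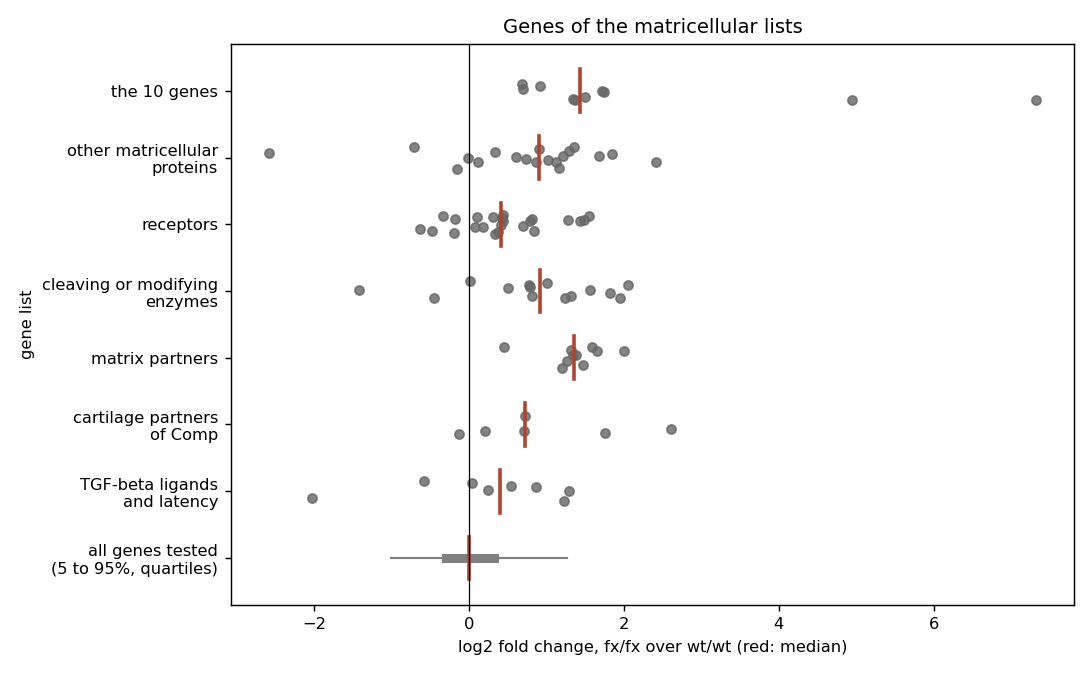
Log2 fold change of fx/fx over wt/wt for each tested gene of the lists, 1 point per gene with a red line at the median; the grey bars show the 5 to 95% range and the quartiles of all genes tested. The 10 genes have a median of 1.43 and matrix partners of 1.36, while receptors have 0.41.

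Genes most like Comp and Spp1 in their profile over the 6 libraries were named without a test. Likeness was the root mean square difference between log2 CPM profiles over 6 libraries, each centered on its own mean. The search covered 10927 other tested protein-coding genes with a mean of at least 5 CPM in a genotype, with predicted genes left out. Nearest to Comp were Unc79, which belongs to the NALCN sodium channel complex (difference 0.52), Emb, the membrane glycoprotein embigin (0.68), and Atp6v1c2, a subunit of the vacuolar proton pump (0.77). Emb measured 460.0, 52.9 and 186 CPM in fx1, fx2 and fx3, against 2.37, 1.899 and 7.71 CPM in wt1, wt2 and wt3, with fx1 and wt3 highest in their genotypes, as for Comp. Nearest to Spp1 were Kcna6, a voltage-gated potassium channel (0.63), Itih2, which modifies hyaluronan (0.67), and Rfx8 (1.09). Itih2 measured 36.9, 0.348 and 0.825 CPM in fx1, fx2 and fx3, against at most 0.306 CPM in wt/wt, again with the peak in fx1. Among the 10 genes themselves the closest pair was Thbs3 and Sparc (0.33), followed by Tnxb and Postn (0.38), and Comp and Spp1 stood 1.64 apart.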

How the data were processed

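Total RNA of 6 tumors was isolated with TRIZOL and RNeasy columns before Illumina library preparation, per the labels. The deposited files hold raw counts per gene, made by the authors from paired reads with featureCounts 1.6.0 on the Ensembl release 93 annotation of GRCm38 with strand option 2, per the file headers. The submitters' processing notes name STAR 2.5.1b, featureCounts 1.4.6 and DESeq2 1.12.3. No option to count pairs that align in several places or overlap several genes appears in the headers, and the kit is unnamed, so strand separation of overlapping genes rests on that setting. Of 54232 gene rows, 54165 had a symbol in GENCODE M21, and 0 rows named no gene. At these depths 3 counts, the limit that a count of 0 allows, amount to 0.056 to 0.0817 CPM before TMM scaling. This limit covers error from counting alone.

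Genotypes were compared over all genes with edgeR 4.0.16 (filterByExpr, TMM, robust quasi-likelihood test, 2-sided, Benjamini-Hochberg adjustment, threshold 0.05), in R 4.3.3. Alternatives were DESeq2 1.42.0, limma-voom with limma 3.58.1, other scaling, no filter, the replicate number as a block and leaving out each library. The steps were also run on simulated counts, and no result given here rests on that run. Log2 fold changes put fx/fx on top, SEs follow from the test statistic, and errors are SDs over 3 libraries. Chromosome medians were taken over protein-coding genes that averaged above 3 on the log2 CPM scale.

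The 10 genes, the gene lists and the tests were chosen with earlier results of these data known. Named genes were the 10, Arhgap31, the 3 of each list with the smallest p, and the 3 nearest to Comp and to Spp1 by profile; genes next to Spp1 were named by position, and genes in other sentences as markers.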

Additional observations from a re-analysis of the deposited data

How the results depend on the processing

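All 170 fold changes of the 10 genes under the alternatives kept their direction. With edgeR 0 genes were called (1370 higher and 1011 lower at an unadjusted p under 0.05), as with limma-voom and with DESeq2 size factors; the count was 38 without the filter on low counts and 833 with DESeq2. Leaving out 1 library gave between 0 and 2 genes with edgeR (2 without fx2). DESeq2 then called 508, 1626 and 856 genes without fx1, fx2 and fx3, and 412, 565 and 547 without wt1, wt2 and wt3. Of the 10 genes, edgeR called 0 under every alternative run with it, limma-voom called 0 and DESeq2 6; DESeq2 called 3, 5 and 8 without fx1, fx2 and fx3, and 3, 4 and 3 without wt1, wt2 and wt3. The log2 fold change of Arhgap31 passed with DESeq2 (-2.40, adjusted p = 4.67e-05) and also with a library left out, at -2.80, -2.03 and -2.45 without fx1, fx2 and fx3, and at -2.22, -2.55 and -2.39 without wt1, wt2 and wt3. That of Spp1 was 4.58 with limma-voom, and the cause was not tested. The replicate numbers did not pair the libraries (correlations of deviations across genes of -0.078, -0.092 and -0.0073 for equal numbers). For unequal numbers the correlations were 0.300 for fx2 with wt1, 0.214 for fx3 with wt2, 0.203 for fx1 with wt3, and negative otherwise. With the replicate block 0 genes and 0 of the 10 were called, and Spp1 had a log2 fold change of 4.08. No gene list median changed direction under the alternatives run. By over 1.5 times moved the TGF-beta median, to 0.13 without fx2, 0.68 without wt2 and 0.20 with the replicate block, and the receptor median, to 0.22 without fx1. The enzyme median, at 0.66 without fx2 and 1.15 without fx3, moved by more than the spread of the list's mean level between libraries. Other scalings left the ratio of highest to next library within its spread in 20 of 20 values, and under other scalings, an alternative added after the data were seen, 3 of 3 nearest genes to Comp and to Spp1 were the same.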

Other observations

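Extreme values in single libraries also occurred among matricellular genes and their enzymes outside the 10, named here after their values were seen. Smoc1, a secreted relative of Sparc, measured 490.2, 22.2 and 30.6 CPM in fx1, fx2 and fx3, against 53.2, 5.34 and 92.7 CPM in wt1, wt2 and wt3. Its peak was in fx1, as for Spp1, but wt1 and wt3 lay above fx2 and fx3. Mmp14, a membrane-bound matrix protease, measured 38.4, 43.3 and 181 CPM in fx1, fx2 and fx3, against 21.9, 23.4 and 17.9 CPM in wt1, wt2 and wt3, with its peak in fx3. Fam20c, the kinase that phosphorylates osteopontin, measured 6.57, 6.72 and 2.23 CPM in fx1, fx2 and fx3, against 4.72, 32.8 and 4.26 CPM in wt1, wt2 and wt3, with its peak in wt2.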
